A study of Arabidopsis thaliana with 9 samples.

Results

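Germinating Arabidopsis seeds of 2 transgenic genotypes, mARF10 and ARF10, were compared across every probe set of a 1-colour expression array. The comparison used the 6 arrays titled mARF10 or ARF10, 3 of each, out of 9 in the study. All 22746 non-control probe sets were taken as members, whether or not the annotation names them. Both genotypes carried a fusion of the AUXIN RESPONSE FACTOR10 gene to the green fluorescent protein (GFP), made from 3 kb of the gene's own upstream region and 2.3 kb of coding region. The fusion in mARF10 seeds had 4 mutations in the microRNA160 target site, and the fusion in ARF10 seeds had that site intact. The other 3 arrays were of Col-0, the wild-type accession without either fusion. Every group was sampled after 3 days at 4 °C in the dark followed by 22 h at 22 °C in the light, and every sample pooled 3 seed lots. Replicates are independent biological ones per the labels, which do not say how many transformed lines each genotype stands for. Whole seeds were used, so fewer cells of a type and less RNA per cell cannot be told apart.

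Auxin response factors are transcription factors that bind the promoters of auxin-responsive genes. ARF10 is one of the members thought to repress its targets, and its messenger RNA is cleaved through pairing with microRNA160. Mutating the pairing site is a standard way to make a transcript that the microRNA no longer recognises. In seeds, auxin acts together with abscisic acid, the hormone that maintains the maturation programme of storage and desiccation proteins and holds back germination. The comparison of mARF10 with ARF10 asks what changes in the seed when the fusion differs only in that site.

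The annotation paired 13513 non-control probe sets with 1 gene and 503 with several, and left 8730 unnamed. No probe set was paired with ARF10 or with any of the other 13 listed ARF genes, so the transcript of the fusion itself was not analysed here. Escape of the mutated fusion from microRNA160 was not tested. Of 29 listed genes of abscisic acid metabolism and signalling and 6 listed root tip markers, likewise, none was named here. Of the cell type lists, 3 of 9 seed coat and endosperm genes and 2 of 8 shoot genes were named, and 1 and 2 of them were tested, so the tissue could be checked only thinly. Replicate arrays correlated at 0.992 to 0.995 within mARF10 and 0.995 to 0.997 within ARF10, and arrays of the 2 genotypes at 0.985 to 0.989. Col-0 arrays correlated at 0.968 to 0.990 with each other, a wider range, and their spread enters the estimate of error. The number of arrays limits the precision of every value below.

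Values are the deposited log2 signals, and a difference is mARF10 minus ARF10 on that scale. Adjusted p-values are from limma with Benjamini-Hochberg adjustment over the 15922 probe sets whose mean over the 9 arrays was at least 5.72, and a probe set was called below 0.05. Errors are SDs over 3 arrays or the standard error (SE) of a difference. By this test 65 probe sets were called, 0.408% of those tested. Of these, 50 were higher in mARF10 (0.314%) and 15 were lower (0.0942%). Named genes made up 24 of the higher and 8 of the lower ones, and 33 called probe sets are unnamed here. Every array of one genotype lay beyond every array of the other in all 65, an arrangement found in 22.3% of all tested probe sets. The 65 were called on these same arrays, so this separation is not separate support for them.

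The increases were larger than the decreases. Among called probe sets the median difference was 1.13 for the higher ones, with a range of 0.54 to 4.94, and -0.66 for the lower ones, with a range of -2.03 to -0.40. At least 2-fold differences numbered 32 among the higher and 1 among the lower. The same lean was seen over all tested probe sets, called or not. Although only 42.8% of them had a positive difference and the median was -0.02, 134 differed at least 2-fold (0.842%), of which 130 were higher in mARF10 (0.816% of those tested) and 4 were lower (0.0251%). It was present at each level of signal. With the tested probe sets in 3 equal bins of signal, 20 were at least 2-fold higher and 0 lower in the dimmest bin, 59 and 3 in the middle one, and 51 and 1 in the brightest.

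**Figure D1:**
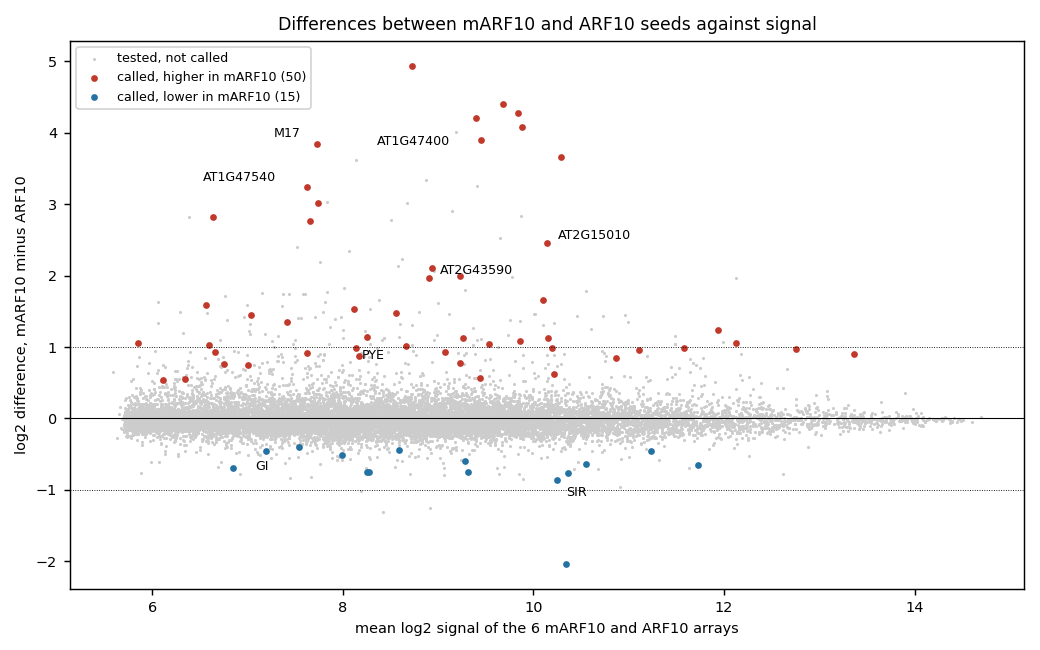
Log2 difference between mARF10 and ARF10 (vertical axis) against the mean log2 signal over the 6 mARF10 and ARF10 arrays (horizontal axis) for the 15922 tested probe sets, 1 point each, with the 65 called ones coloured and dotted lines at a 2-fold difference. The large differences lie almost all above 0, with 130 probe sets at least 2-fold higher in mARF10 and 4 at least 2-fold lower.

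Of the 130 probe sets at least 2-fold higher, 32 were called and 98 were not. In all 130 every mARF10 array was above every ARF10 array, beside 9.58% of all tested probe sets. The 130 were chosen for the size of their difference, so this separation is not separate support for the 98. The median SE was 0.25 for the called and 0.43 for the others. The median SD of Col-0, which takes part in that SE, was 0.45 and 1.01. In a fit of the 2 transgenic genotypes alone, without Col-0, 116 of the 130 were called. The number was 86 with Col-0 replicate 1 left out and 77 with Col-0 replicate 2 left out, and it stayed at 32 with Col-0 replicate 3 left out. The fit of the 2 genotypes without moderation called 0. Leaving out 1 transgenic array gave 1 to 18.

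Of 8 measured genes of the iron deficiency response, 5 were higher in mARF10 by the test and 3 were not called. Plants short of iron switch on a set of basic helix-loop-helix transcription factors, metal transporters and small signalling peptides. Of 28 listed genes linked to a locus, 8 were named on the array and tested, and the 5 called were all higher in mARF10, beside 0.314% of all tested probe sets called higher. The median difference of the 8 was 0.92, beside -0.02 for all tested probe sets. A list of these genes was written with earlier results of these data known, so its direction is not independent evidence.

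AT1G47400, a small peptide gene known to respond to iron shortage, read 11.43, 11.25 and 11.54 in mARF10 replicates 1 to 3 (mean 11.41 ± 0.14, SD, n = 3) and 7.03, 7.91 and 7.56 in ARF10 (7.5 ± 0.45). The 3 mARF10 arrays were close together and far above all ARF10 arrays. The difference was 3.90 (SE 0.45, limma adjusted p = 0.0143), a 15-fold higher signal. Col-0 arrays read 10.76, 9.03 and 8.84, between the 2 transgenic genotypes.

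Both transcription factors of the list that are known as regulators induced by iron deficiency, PYE and BHLH101, were also called. PYE (POPEYE) read 8.84, 8.67 and 8.97 in mARF10 and 7.67, 7.85 and 7.53 in ARF10, without overlap, a difference of 1.14 (SE 0.16, limma adjusted p = 0.0243). BHLH101 read 6.62, 6.09 and 6.43 in mARF10 against 5.23, 5.36 and 5.36 in ARF10, a difference of 1.06 (SE 0.15, limma adjusted p = 0.0243). The ARF10 and Col-0 means of BHLH101 lay below 5.72, the level used as a filter on the mean. This gene was thus tested only through its mARF10 arrays and adds no support to the count of 5 or to the list's median. In Col-0 PYE read 8.60, 8.56 and 8.03, replicates 1 and 2 being nearer to mARF10 and replicate 3 to ARF10. BHLH101 read 5.74, 5.69 and 5.35 there, nearer to ARF10.

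AT3G58060, a cation transporter of the cation diffusion facilitator family, read 9.60, 9.71 and 9.52 in mARF10 and 8.74, 8.95 and 8.83 in ARF10. The groups did not overlap, and the difference was 0.77 (SE 0.11, limma adjusted p = 0.0317). AT5G05250, the fifth called member, read 10.80, 10.54 and 10.82 against 9.55, 9.70 and 9.52, a difference of 1.13 (SE 0.17, limma adjusted p = 0.0317). The other 3 members showed small negative differences and were not called. ILR3, a transcription factor that acts upstream in the same response, differed by -0.04 (95% interval -0.18 to 0.09, limma adjusted p = 0.841). AT3G07720 differed by -0.06 and AT3G12900 by -0.14 (adjusted p = 0.776 and 0.538, limma), the last with every mARF10 array below every ARF10 array. Averaged over the 8 genes, the log2 signal was 9.03, 8.93 and 9.05 in mARF10, 7.94, 8.13 and 8.02 in ARF10, and 8.67, 8.50 and 8.28 in Col-0. This mean separated the 2 transgenic genotypes on every array, with Col-0 between them. It restates the 5 calls, BHLH101 among them, and is not further evidence about the list. The 5 calls did not all hold when single arrays were left out. They numbered 4 with Col-0 replicate 3 left out, 2 with mARF10 replicate 2 left out and 0 when any other transgenic array was left out or in the 2-genotype fit without moderation, while the median difference stayed between 0.86 and 0.96.

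**Figure D2:**
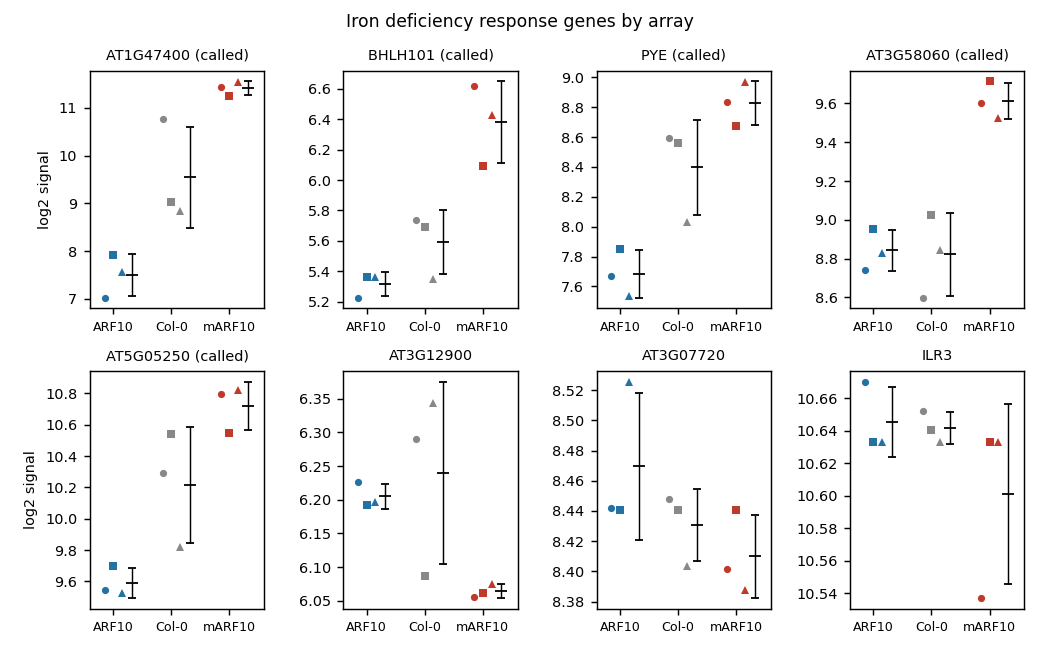
Log2 signal (vertical axis, 1 panel and 1 scale per gene) of the 8 tested genes of the iron deficiency list in ARF10, Col-0 and mARF10 seeds. Points are single arrays, with the symbol giving the replicate number, and black bars are the mean ± SD of 3 arrays. In 5 panels, those of the called genes, the mARF10 points all lie above the ARF10 points, by 0.77 to 3.90 in the mean. This separation was found in 9.58% of all tested probe sets.

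Of the listed genes of the seed maturation programme, 4 were called, all higher in mARF10, beside 0.314% of all tested probe sets. They were 2 of 32 tested LEA genes, 1 of 7 storage protein and oil body genes and 1 of 2 maturation regulators. Late embryogenesis abundant (LEA) proteins accumulate as the embryo dries, and their transcripts normally decline on imbibition. Of 53 listed LEA genes 37 were named and 32 tested, and the 5 not tested differed by -0.02 to 0.11. The difference was positive in 31 of the 32, beside 42.8% of all tested probe sets, with a median of 0.72. In 21 of the 32 all mARF10 arrays were above all ARF10 arrays, beside 9.58% of tested probe sets. The lists of this programme were written with earlier results of these data known, so their counts and direction are not independent evidence. Only M17 and AT3G02480 were called.

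M17, an LEA gene, read 10.01, 9.87 and 9.08 in mARF10 (9.65 ± 0.50) and 5.92, 6.40 and 5.11 in ARF10 (5.81 ± 0.66). The difference was 3.84 (SE 0.57, limma adjusted p = 0.0317), a 14.3-fold higher signal with no overlap between groups. Replicate 3 was the lowest array in both genotypes. M10, the next annotated gene to M17 and another LEA gene, read 9.70, 9.29 and 8.72 in mARF10 and 5.85, 6.95 and 5.86 in ARF10. Its difference of 3.02 (SE 0.58) was nearly as large as that of M17 but was not called (limma adjusted p = 0.0745). Col-0 spread widely for both, at 7.77, 9.93 and 9.82 for M17 and 7.25, 9.21 and 9.60 for M10, with replicate 1 low. Whether the 2 probe sets also take up RNA of the neighbouring gene was not tested.

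AT3G02480 was much brighter and differed less. Its arrays read 13.28, 13.38 and 13.05 in mARF10 and 12.41, 12.20 and 12.19 in ARF10, a difference of 0.97 (SE 0.13, limma adjusted p = 0.0243). The 2 groups stood apart by more than their own spread, while the Col-0 arrays, at 12.62, 12.80 and 12.35, lay between the 2 means. AT3G53040 was not called, with a difference of 1.63 (SE 0.33, limma adjusted p = 0.0941). The 30 uncalled LEA genes differed by -0.03 to 3.02, and 8 of them by at least 2-fold. The mean over the 32 genes was 9.40, 9.28 and 8.99 in mARF10, 8.32, 8.54 and 8.23 in ARF10, and 8.51, 9.47 and 9.16 in Col-0. Col-0 replicates 2 and 3 were thus at the level of mARF10, and replicate 1 was near ARF10. Replicate 3 was the lowest mARF10 array in 24 of the 32 genes, beside 4146 of the 15922 tested probe sets. The LEA members thus share array-to-array variation and are not independent of each other. The 2 LEA calls became 13 when the transgenic genotypes were fitted alone, 8 with Col-0 replicate 1 left out, 6 with Col-0 replicate 2 left out and 0 with any 1 of the 6 transgenic arrays left out. They stayed at 2 with Col-0 replicate 3 left out, and the 2-genotype fit without moderation gave 0.

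Storage protein and oil body genes gave a similar picture. Seeds store nitrogen in vicilin-type and other cupin globulins, and lipid in oil bodies coated with oleosins. Of 23 listed genes 9 were named and 7 tested, and the 2 not tested differed by -0.02 and 0.27. All 7 tested genes had every mARF10 array above every ARF10 array (9.58% of all tested probe sets), with a median difference of 1.46, but only OLEO3 was called. As this list was also written with earlier results of these data known, its direction is not independent evidence.

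OLEO3, an oleosin gene, read 10.58, 10.11 and 10.51 in mARF10 and 9.37, 9.24 and 9.33 in ARF10. The difference was 1.09 (SE 0.12, limma adjusted p = 0.0120), and the Col-0 arrays, at 9.71, 9.51 and 9.59, lay between the 2 groups. Larger differences came with a larger error. PAP85, a vicilin-type storage globulin gene, read 11.43, 9.65 and 10.55 in mARF10 and 7.29, 7.75 and 6.57 in ARF10, a difference of 3.34 (SE 0.67, limma adjusted p = 0.0937). AT2G28490, a cupin storage protein gene, read 10.06, 8.98 and 9.03 against 6.31, 6.95 and 5.69, a difference of 3.04 (SE 0.53, limma adjusted p = 0.0582). Neither showed overlap, and in both the Col-0 arrays were widely spread, from 8.14 to 10.76 for PAP85 and from 7.63 to 9.70 for AT2G28490.

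Of the other oleosin genes, AT3G01570 read 11.13, 10.50 and 10.56 in mARF10 and 9.11, 9.52 and 9.19 in ARF10, a difference of 1.46 (SE 0.27, limma adjusted p = 0.0697). AT2G25890 differed by 1.54 and AT3G18570 by 0.60 (limma adjusted p = 0.169 and 0.285), and the cupin gene AT4G36700 by 1.35 (limma adjusted p = 0.168). None of these was called. The mean over the 7 genes was 9.82, 8.96 and 9.14 in mARF10, 7.45, 7.90 and 7.26 in ARF10, and 7.99, 8.99 and 9.06 in Col-0. Replicate 1 was the highest mARF10 array in 7 of 7 genes, beside 5919 of the 15922 tested probe sets. Replicate 2 was the highest ARF10 array in 6 of 7, beside 4867 of the 15922, so the members share their array-to-array variation. The count of 1 called storage gene became 6 when the transgenic genotypes were fitted alone and 5 with either Col-0 replicate 1 or Col-0 replicate 2 left out. It stayed at 1 with Col-0 replicate 3 left out, was 0 or 1 without a transgenic array, and was 0 in the 2-genotype fit without moderation. The values for members that were not called, beyond the 4 smallest p of a list, were included after they had been seen.

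**Figure D3:**
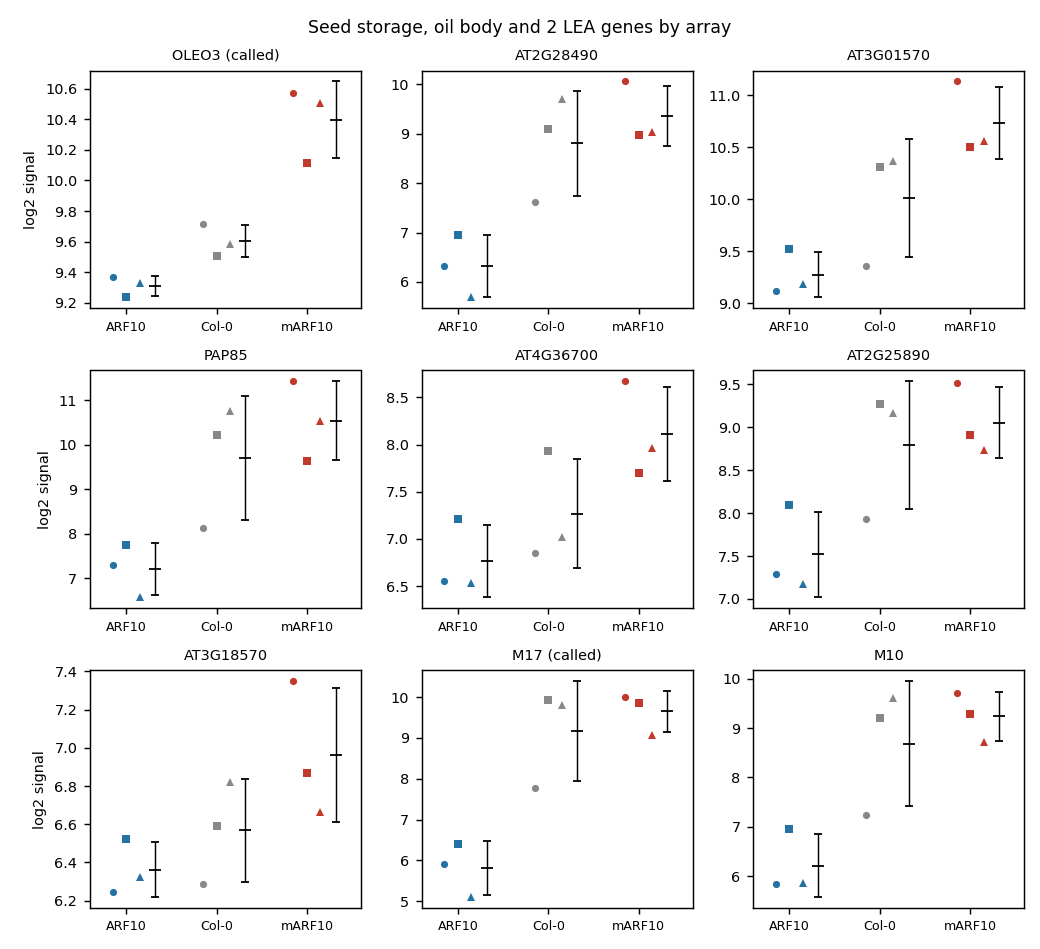
Log2 signal (vertical axis, 1 panel and 1 scale per gene) of the 7 tested storage protein and oil body genes and the LEA genes M17 and M10 in ARF10, Col-0 and mARF10 seeds, with points for single arrays, symbols for the replicate number and black bars for the mean ± SD of 3 arrays. All mARF10 points lie above all ARF10 points in all 9 panels, beside 9.58% of all tested probe sets. The lists were written with earlier results of these data known. M17 and M10 have the largest differences of the 32 tested LEA genes, of which 21 show this separation. The Col-0 points of several genes spread across the gap.

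EEL, a bZIP transcription factor that acts on LEA genes during seed maturation, was 1 of 2 named genes among 12 listed maturation regulators. It read 7.37, 6.83 and 7.11 in mARF10 and 6.22, 6.03 and 6.01 in ARF10. The groups did not overlap, and the difference of 1.02 (SE 0.17) was just within the threshold (limma adjusted p = 0.0499). The Col-0 arrays, at 6.65, 6.06 and 6.48, were mostly between the 2 means, replicate 2 being at the level of ARF10. BZIP53, the other maturation regulator measured, differed by 0.07 and was not called (limma adjusted p = 0.807).

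Some members of the trypsin inhibitor, thionin and chitinase families were also called. Trypsin inhibitors of seeds block digestive proteases, and 2 of the 3 tested genes of that family were called higher, beside 0.314% of all tested probe sets. The lists of these families were written with earlier results of these data known, so such counts are not independent evidence. AT1G47540 read 9.65, 8.93 and 9.16 in mARF10 (9.25 ± 0.37) and 6.30, 5.87 and 5.83 in ARF10 (6.0 ± 0.26). It was 9.49-fold higher, a difference of 3.25 (SE 0.27, limma adjusted p = 0.00520), and all Col-0 arrays, at 6.57, 7.56 and 6.81, were below all mARF10 arrays. Of the named genes it was the one that stayed called most often when arrays were left out in turn, in 8 of 9 fits, with the exception of the fit without ARF10 replicate 3 (limma adjusted p = 0.0674).

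AT2G43530, another gene of the trypsin inhibitor family, read 8.18, 8.15 and 7.94 in mARF10 and 6.97, 6.28 and 6.97 in ARF10, a difference of 1.35 (SE 0.19, limma adjusted p = 0.0283). Its neighbour on the chromosome, AT2G43535, belongs to the same family and read 10.80, 10.84 and 11.01 against 9.75, 9.25 and 9.63. That pair of groups did not overlap either, but the difference of 1.34 (SE 0.31) was not called (limma adjusted p = 0.133). The Col-0 arrays of AT2G43535 ranged from 9.14 to 10.61.

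AT2G15010, of the thionin family of antimicrobial peptides, read 11.72, 11.27 and 11.13 in mARF10 and 8.71, 9.24 and 8.80 in ARF10. It was 5.49-fold higher, with a difference of 2.46 (SE 0.35, limma adjusted p = 0.0279), and the 2 groups were far apart. THI2.2, the other thionin tested, differed by -0.15 (limma adjusted p = 0.567). AT2G43590, of the chitinase family of chitin-degrading enzymes, read 9.99, 10.12 and 9.57 in mARF10 against 8.45, 7.61 and 7.70 in ARF10, a difference of 1.97 (SE 0.24, limma adjusted p = 0.0180). Its Col-0 arrays, at 9.42, 9.85 and 9.88, were at the level of mARF10. The 3 other chitinase genes tested, AT2G43620, CHI and AT2G43610, differed by 0.35, 0.31 and 0.34 without being called (limma adjusted p = 0.285 to 0.497).

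Among the remaining called genes with higher signal, AT1G62510, of the lipid transfer and seed albumin superfamily, had very tight arrays. They read 12.17, 12.04 and 11.99 in mARF10 and 11.10, 11.09 and 11.07 in ARF10, a difference of 0.98 (SE 0.09, limma adjusted p = 0.00581). Its Col-0 arrays, at 11.46, 11.43 and 11.69, lay between the groups. HTB2, a histone H2B gene, read 10.39, 10.62 and 10.59 against 9.92, 9.88 and 9.91, a difference of 0.63 (SE 0.09, limma adjusted p = 0.0243). The 2 groups did not overlap, although the change was modest.

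Cell wall and secreted proteins in this group were AT5G59170, of the proline-rich extensin-like family, with a difference of 1.01 (limma adjusted p = 0.0499), the glycine-rich protein gene AT1G04660 with 0.98 (0.0230), and ARPN, which encodes the copper protein plantacyanin, with 0.96 (0.0480). The glutaredoxin gene GRXC1, of thiol redox balance, differed by 0.85 (limma adjusted p = 0.0480). AT2G14900, of a family of gibberellin-regulated small proteins, differed by 0.77 (limma adjusted p = 0.0427). AT4G31830 read 7.76, 7.04 and 7.29 in mARF10 and 5.77, 5.77 and 5.78 in ARF10, a difference of 1.59 (SE 0.25, limma adjusted p = 0.0427). The ARF10 arrays of that gene were nearly identical, while the Col-0 arrays ranged from 6.21 to 7.16. AT5G46230 differed by 1.46 (SE 0.23), AT1G20070 by 0.98 (SE 0.13) and AT3G14595 by 0.56 (SE 0.09), with limma adjusted p = 0.0425, 0.0243 and 0.0426.

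**Figure D4:**
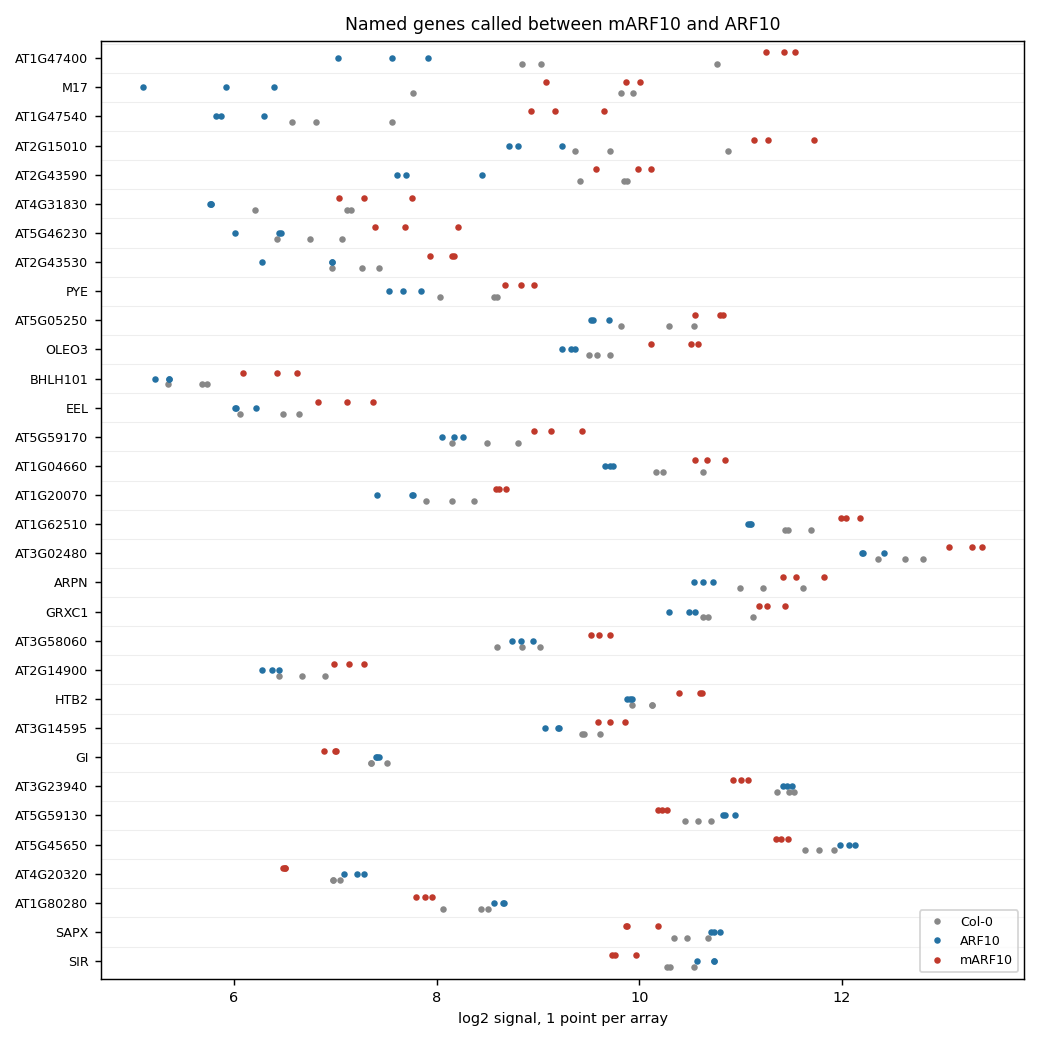
Log2 signal (horizontal axis) of the 32 called named genes, 1 row each in order of their difference, with 1 point per array coloured by genotype (mARF10, ARF10 and Col-0, 3 arrays each). In the 24 upper rows every mARF10 point lies to the right of every ARF10 point, with differences of 0.56 to 3.90 in the mean. In the 8 lower rows every mARF10 point lies to the left, with -0.86 to -0.45. Such separation was found in 9.58% (higher) and 12.7% (lower) of all tested probe sets, and these rows were chosen by the test.

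The 8 named genes with lower signal in mARF10 were enzymes, proteases and a clock gene, with differences from -0.86 to -0.45. SIR, the sulfite reductase of sulfur assimilation, read 9.76, 9.97 and 9.73 in mARF10 and 10.74, 10.73 and 10.57 in ARF10. The difference was -0.86 (SE 0.10, limma adjusted p = 0.0156), and the Col-0 arrays, at 10.28, 10.31 and 10.54, lay between the groups. The other 2 tested genes of sulfate assimilation were not called. APS3, an ATP sulfurylase gene from the start of the same pathway, differed by -0.33 (95% interval -0.53 to -0.14, limma adjusted p = 0.196), and APS4 by 0.00 (limma adjusted p = 0.999).

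SAPX, a chloroplast stromal ascorbate peroxidase that removes hydrogen peroxide, read 9.88, 10.19 and 9.86 in mARF10 against 10.80, 10.71 and 10.74 in ARF10, a difference of -0.77 (SE 0.11, limma adjusted p = 0.0317). The mARF10 arrays were all lower, with replicate 2 the highest of them. TAPX, its counterpart at the thylakoid membrane, differed by -0.04 (limma adjusted p = 0.911). AT4G20320, of the CTP synthase family of nucleotide synthesis, read 6.48, 6.51 and 6.51 against 7.09, 7.28 and 7.21. Its difference of -0.70 (SE 0.07, limma adjusted p = 0.00945) came with the smallest mARF10 SD among the 32 called named genes, 0.01.

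Of 6 tested subtilases, a large family of secreted serine proteases, 2 were called lower, beside 0.0942% of all tested probe sets. All 6 had negative differences, some near 0, and 42.8% of all tested probe sets had positive ones. The subtilase list was written with earlier results of these data known, so neither count is independent evidence. AT5G45650 read 11.34, 11.40 and 11.47 in mARF10 and 11.98, 12.07 and 12.13 in ARF10, a difference of -0.66 (SE 0.09, limma adjusted p = 0.0243). AT5G59130 read 10.28, 10.18 and 10.22 against 10.83, 10.94 and 10.84, a difference of -0.64 (SE 0.08, limma adjusted p = 0.0217). Both had non-overlapping groups. Each lies next to another subtilase gene, and the neighbours, AT5G45640 and SBT4.13, differed by -0.20 and -0.03 without being called (limma adjusted p = 0.776 and 0.923).

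GI (GIGANTEA), a component of the circadian clock, read 7.0, 7.0 and 6.89 in mARF10 and 7.40, 7.41 and 7.43 in ARF10, a difference of -0.45 (SE 0.07, limma adjusted p = 0.0425). The Col-0 arrays, at 7.36, 7.35 and 7.51, were at the level of ARF10. No other of the 10 listed clock genes was named here, and the hour of harvest of the single samples was not given in the sources used here. AT1G80280, of the alpha/beta hydrolase family, differed by -0.74 and AT3G23940, the dihydroxyacid dehydratase of branched-chain amino acid synthesis, by -0.46 (limma adjusted p = 0.0353 and 0.0421). Both had every mARF10 array below every ARF10 array.

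Lists of auxin response, gibberellin and cell wall loosening genes had no called member. Of 28 listed auxin response genes 9 were named and 5 tested. WES1, a GH3 enzyme that conjugates auxin to amino acids, differed by -0.27 (95% interval -0.46 to -0.07, limma adjusted p = 0.299), and GH3.1, another member of that family, by -0.37 (0.369). LBD16, a transcription factor of lateral root formation, differed by 0.27 and GH3.17 by 0.13 (limma adjusted p = 0.656 and 0.835). The median of the 5 was 0.03. Among the 5 tested gibberellin genes the differences ran from -0.24 to 0.09, the receptor genes GID1C and GID1A giving -0.24 and 0.05. SPT, with the smallest adjusted p of that list, differed by -0.21 (limma adjusted p = 0.326). Among 8 tested cell wall loosening genes they ran from -0.68 for the expansin EXPA15 to 0.33 for the expansin EXPA4. The smallest adjusted p of these 3 lists was 0.133 by limma, for the expansin EXPB1 with a difference of -0.37. With array weights 2 auxin, 1 gibberellin and 2 cell wall genes were called lower, beside 545 of all tested probe sets. With a replicate block over the 2 genotypes 1 auxin and 1 cell wall gene were called lower, beside 133 of all tested probe sets.

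Genes of seedling establishment were likewise not called. Of 7 tested genes of photosynthesis and chlorophyll synthesis, 6 had negative differences and 1 a positive one, beside 42.8% positive among all tested probe sets. The list had a median of -0.39 and limma adjusted p-values of 0.430 to 0.994. It was also written with earlier results of these data known. With array weights 1 of the 7 was called lower, and with a replicate block over the 2 genotypes 2 were. Over all tested probe sets those settings called 545 and 133 lower. PORB, which makes chlorophyllide in the light, differed by -0.71, and LHCB4.1, a light-harvesting protein gene, by -0.54. Only 1 of the 7 had every mARF10 array below every ARF10 array, beside 12.7% of tested probe sets. The mean of the list on single arrays was 9.26, 9.04 and 9.64 in mARF10 and 9.77, 9.42 and 9.69 in ARF10, so the groups overlapped. ICL, the isocitrate lyase through which stored oil is turned to sugar, was near the top of the range on all arrays and differed by 0.02 (limma adjusted p = 0.937). SDP1, a lipase of the oil body, differed by -0.22 and AIM1, of fatty acid breakdown, by 0.21 (limma adjusted p = 0.355 and 0.467).

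The small RNA pathway, in which microRNA160 acts, was represented by SE and AGO7, with differences of -0.15 and -0.08 (limma adjusted p = 0.639 and 0.815). The seed coat gene BAN differed by -0.08, and the shoot genes CLV3 and PHV by -0.04 and 0.00 (limma adjusted p = 0.833, 0.945 and 0.998). The 3 tested reference genes, chosen as stable in seeds, differed by 0.02 to 0.07, and none of these 8 genes was called. PRL, the only cell cycle gene tested, differed by -0.03 (limma adjusted p = 0.973).

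**Figure D5:**
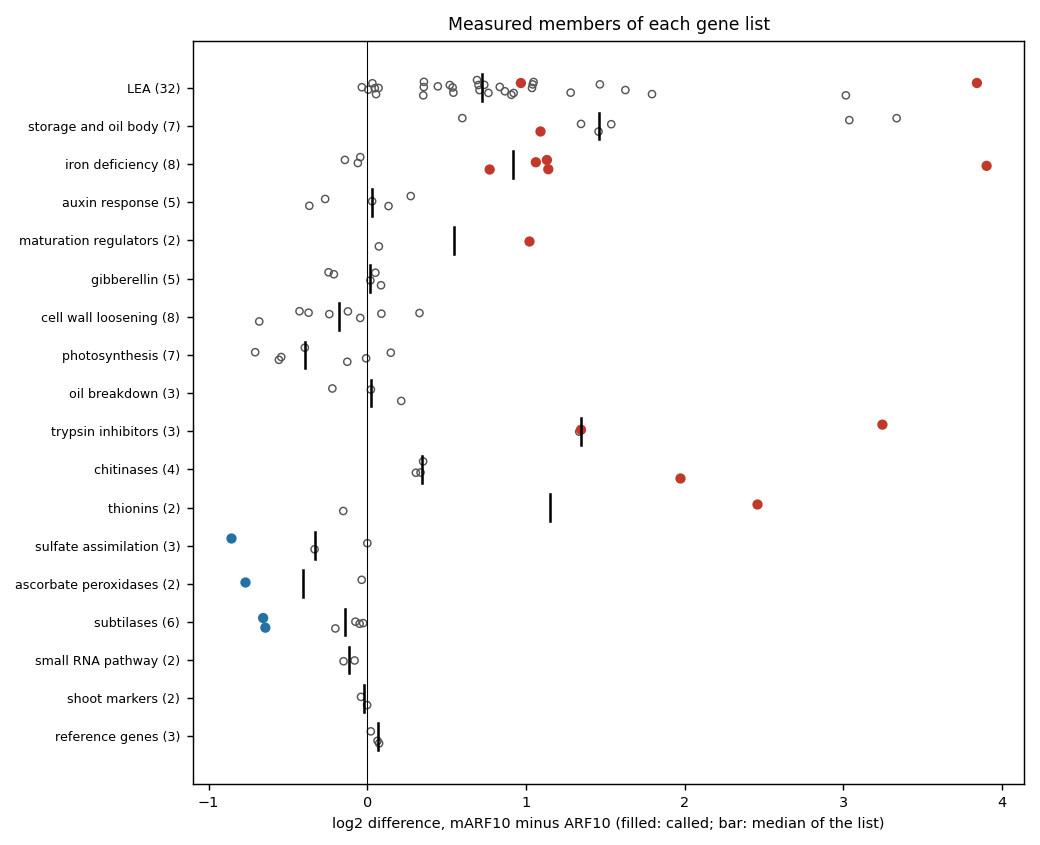
Log2 difference between mARF10 and ARF10 (horizontal axis) of the tested members of each gene list with at least 2 of them, 1 point per gene, with called genes coloured and a line for the median of the list. The LEA, storage and iron lists have medians of 0.72, 1.46 and 0.92, and the median of all tested probe sets is -0.02. The lists were written with earlier results of these data known.

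The called probe sets without a named gene held the largest differences. Probe set 253902_at read 11.77, 10.90 and 10.90 in mARF10 and 6.01, 6.82 and 5.92 in ARF10, a difference of 4.94 (SE 0.52, limma adjusted p = 0.00951). Probe set 253904_at read 12.64, 10.94 and 12.08 against 7.56, 7.49 and 7.39, a difference of 4.41 (limma adjusted p = 0.00945). In both the groups were separated by more than 3 log2 units and the mARF10 arrays differed among themselves, with replicate 1 the highest. The next 3 were 253895_at, 253894_at and 253767_at, with differences of 4.29, 4.2 and 4.08 (limma adjusted p = 0.00951, 0.00951 and 0.0484). The Col-0 arrays of 253902_at, at 8.15, 10.33 and 8.64, lay between the groups.

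Of the unnamed probe sets with lower signal, 251109_at showed the largest decrease. It read 8.98, 9.67 and 9.32 in mARF10 and 11.49, 11.15 and 11.43 in ARF10, a difference of -2.03 (SE 0.30, limma adjusted p = 0.0317). The next were 262263_at and 255305_at, both with a difference of -0.75 (limma adjusted p = 0.0120 and 0.0243). Probe set 259008_at, singled out after its values were seen, had the smallest adjusted p of all. It read 12.69, 12.56 and 12.43 in mARF10, 11.43, 11.22 and 11.30 in ARF10 and 12.12, 12.13 and 12.17 in Col-0, a difference of 1.24 (SE 0.09, limma adjusted p = 0.00225). Of the 65 called probe sets it alone stayed called whichever of the 9 arrays was left out, with a largest adjusted p of 0.0380.

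The 32 called named genes have 64 immediate neighbours in the gene order of assembly TAIR10.1, of which 31 were tested. None of the 31 was called by limma, and 16 had positive and 15 negative differences. M10 and AT2G43535, given above, were the neighbours that were at least 2-fold higher, and the 33 neighbours that were not tested leave the wider pattern unmeasured.

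Most calls did not hold when any 1 transgenic array was left out. All 65 probe sets kept the sign of their difference in each of the 9 fits that left out 1 array. This was fixed in advance, since in all 65 the arrays of the 2 genotypes did not overlap. None of the differences moved by more than 1.5 times. All 65 also stayed called when Col-0 replicate 1 or 2 was left out, 41 when Col-0 replicate 3 was left out and 21 when mARF10 replicate 2 was left out. The fits without ARF10 replicate 1, 2 or 3 made 5, 3 and 1 calls in all, and those without mARF10 replicate 1 or 3 made 2 and 10. Each of these fits also had fewer arrays in 1 group, and the share of this in the loss of calls was not tested.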

How the data were processed

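Total RNA of germinating seeds was amplified, labelled with biotin and hybridised to 1 array per sample, from 5 µg per sample, per the labels' protocols. The authors deposited 1 log2 signal for each probe set and array, and their range, 3.70 to 14.78, points to base 2. Their summary method and normalization were not given in the sources used here. Array medians lay at 7.06 to 7.11, and nothing further was normalized. Of 22810 probe sets 64 controls were left out, and 15922 passed a filter that required the mean of the 9 arrays to reach the 30th percentile, while 6824 did not. Whether single probe sets were detected was not assessed.

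Genotype means were fitted to the 9 arrays by limma 3.58.1 under R 4.3.3 (6 residual and 3.11 prior degrees of freedom), and the contrast mARF10 minus ARF10 was taken with eBayes and 2-sided Benjamini-Hochberg adjusted p-values. Col-0 thus entered only the estimate of spread and is described by its values. The fit was tested on simulated data.

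Genes were named from the platform annotation, and 13436 of 13513 single-gene probe sets matched the TAIR10.1 gene table. A gene with several probe sets was represented by the brightest. Named were every called single-gene probe set, the 5 largest increases and 3 largest decreases among unnamed called ones, and from each of 24 lists the called members and up to 4 with the smallest unadjusted p. Some uncalled members that met this rule, such as XTH33 and LHCB4.3, are not described above. The members and lists were chosen with earlier results of these data known. Replicates with the same number were checked for shared deviations (correlation -0.08, 0.16 and 0.25 for replicates 1, 2 and 3), which did not show them to be pairs. Alternatives were other filters, scalings, weights, a replicate block, fewer genotypes and each array left out.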

Additional observations from a re-analysis of the deposited data

How the results depend on the processing

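The 65 calls became 49 without a filter, 57 with a filter at the 50th percentile, 63 after quantile normalization, 75 after median centring, 65 with a floor at a log2 signal of 4 and 60 with a trended, robust prior. Of the 65, 48 were also called without a filter and 58 after quantile normalization. With the 2 transgenic genotypes fitted alone 397 probe sets were called, the 65 included. Array weights gave 1212, from an estimate that stopped before it converged. Without moderation, the fit of the 2 genotypes called 0, with 2085 at an unadjusted p under 0.05, beside 1741 in limma's moderated fit of all arrays. Leaving out 1 array gave 1 (ARF10 replicate 3) to 267 (Col-0 replicate 2) calls, with 173 when Col-0 replicate 1 and 51 when Col-0 replicate 3 was left out. Where fewer samples entered, the construction itself changes the error, and otherwise the cause was not tested. Whether same-numbered samples share a batch is not known: their deviations correlated at -0.08, 0.16 and 0.25 for replicates 1, 2 and 3, and not every sample correlated best with its own number. With a replicate block over all arrays 70 were called, of which 50 were among the 65, and with a replicate block over the 2 genotypes 547. No called result changed sign under any alternative. For the fits that left out 1 array, the lack of overlap fixed this in advance. With 1 array left out, 11 of the genes described, all uncalled and with differences no further from 0 than 0.13, did change sign, as did the medians of 6 lists without a called member, such as auxin response (0.03 to -0.02) and gibberellin (0.02 to -0.09). A search of promoters for motifs was not run, as no promoter sequences were used here. The 3 arrays per genotype and the unknown background of single probe sets limit what can be said of dim genes.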

Other observations

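Plant defensins, small cysteine-rich antimicrobial proteins, were measured by 5 named genes that were looked up after the values had been seen. PDF2.1 read 11.43, 11.49 and 10.95 in mARF10 and 8.38, 8.57 and 8.42 in ARF10, a difference of 2.83 (SE 0.64) that was not called (limma adjusted p = 0.131). LCR67 read 12.99, 13.66 and 12.66 against 11.04, 11.55 and 10.83, a difference of 1.96, and LCR68 differed by 1.04 (limma adjusted p = 0.149 and 0.116). In all 3 every mARF10 array was above every ARF10 array, beside 9.58% of all tested probe sets. Col-0 was widely spread in these genes, from 8.48 to 11.73 for PDF2.1. PDF1.2b differed by 1.13 and PDF1.2 by -0.08 (limma adjusted p = 0.209 and 0.816), and the probe set of PDF1.2b is of a type that can share probes with related genes.

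The jacalin-type lectin genes JAL22 and JAL33, also chosen after their values were seen, differed by 1.49 and 1.45 (limma adjusted p = 0.0638 and 0.285). AT2G36885 was the only named gene at least 2-fold lower in mARF10, at 8.11, 8.36 and 8.40 against 9.80, 9.18 and 9.65 in ARF10, and it was not called (difference -1.25, limma adjusted p = 0.121).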
